A study of Arabidopsis thaliana with 24 samples.

Results

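Beta-glucosidases (BGLU) and serine carboxypeptidase-like proteins (SCPL) were followed in Arabidopsis thaliana over 8 groups of arrays. A member was a gene whose symbol begins with BGLU or SCPL and a number, read by a probe set annotated to that gene alone, with BGLU28 left out. This gave 48 genes, 19 BGLU and 29 SCPL, of 13350 genes that had such a probe set. The reference gene table (TAIR10.1) holds 40 genes with a BGLU symbol and 49 with an SCPL symbol, 89 in all, so the 48 are a portion of both families, and symbols are written here as the annotation gives them, in upper or lower case. Each of the 48 had a single probe set, so no choice between probe sets was needed.

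Beta-glucosidases of this family split a sugar from a stored glucoside and so release the other molecule, which may be a lignin precursor, a defence compound, a coumarin or a hormone. Serine carboxypeptidase-like proteins share the fold of enzymes that trim amino acids from the end of proteins, but some low-numbered members of the family work as acyltransferases, which join a plant acid such as sinapate to another molecule and use glucose esters as donors. Many beta-glucosidases and these acyltransferases thus act on small molecules that have been tied to glucose, and both families also hold many members whose substrate is not known.

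The study set the mutant oas-a1.1, a T-DNA line (SALK_072213), against the wild type (WT), Col-0. The mutant lacks a functional OASA1, the main cytosolic enzyme that makes cysteine. Plants in hydroponic culture were harvested untreated or after cadmium chloride, which had been present for 18 h when roots were taken and for 24 h when shoots were taken. The dose is uncertain, since one label names 50 µM cadmium chloride and another 50 mM. The groups were cadmium-treated mutant roots, untreated mutant roots, cadmium-treated WT roots, untreated WT roots, and the same 4 groups of shoots, with 3 biological replicates each, 24 arrays in all. The mutant is 1 allele, and the labels do not say how many plants made up a replicate. Roots and shoots had cadmium for different times, so organ and hours cannot be told apart and no response is set against that of the other organ. No label says at what time of day untreated plants were taken.

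Values are log2 signals made with RMA, a method that corrects background, equalises arrays and combines the probes of a set. A difference of 1 is therefore 2-fold. Tests were made with limma over 22746 probe sets, and a member is called where its p, adjusted over all of them, was under 0.05. SD describes the 3 arrays of a group and SE comes from the fitted model, and 3 arrays a group limit the precision of every value. OASA1 is not among the genes named in the annotation used here, so its own level was not read. The organs matched their labels on the few markers measured. The mean of 3 root genes (EXPA7, EXPA18 and PYK10, of 12 listed) was 8.17 to 9.18 on root arrays and 4.47 to 4.79 on shoot arrays. The mean of LHCB4.1 and PSBY, the measured genes among 19 listed for green tissue, was 6.93 to 7.66 on root arrays and 12.29 to 12.73 on shoot arrays. A 25S ribosomal RNA control divided the arrays: 8 of them read 4.62 to 6.0 and the remaining 16 read 7.72 to 11.96. Cadmium-treated mutant shoots and untreated WT shoots held 2 low arrays each. Untreated mutant shoots and untreated WT roots held 0, and every other group held 1, its replicate 1. All low arrays were replicate 1 or 2, so the 25S level and the replicate number are linked. In these bulk samples, fewer cells of a type and less RNA per cell cannot be told apart.

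Many members of both families read low in roots and shoots alike. On every one of the 24 arrays, 10 of 19 BGLU (52.6%) and 15 of 29 SCPL (51.7%) stayed below 6, a level used here only as a description, against 42.6% of all probe sets. The files give no detection call, so whether these members were expressed was not read. Probe sets differ in how strongly they bind, so readings of different members are not compared as amounts. In roots the highest readings among BGLU belonged to BGLU16, BGLU46, BGLU25, BGLU15 and BGLU42, with highest group means of 8.66, 8.09, 7.71, 7.35 and 6.68. In shoots they belonged to BGLU44, BGLU16, BGLU25, BGLU42 and BGLU40, at 11.64, 9.07, 6.96, 6.96 and 6.92. Among SCPL the root readings were led by SCPL49, scpl48, scpl31, scpl29 and SCPL45, at 9.29, 8.96, 8.38, 7.68 and 7.54. The shoot readings were led by SCPL49, scpl48, scpl26, scpl29 and scpl20, at 10.12, 9.10, 8.30, 8.20 and 7.73. SCPL49 is annotated as a carboxypeptidase Y, the name of a protein-digesting enzyme of the yeast vacuole.

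**Figure D1:**
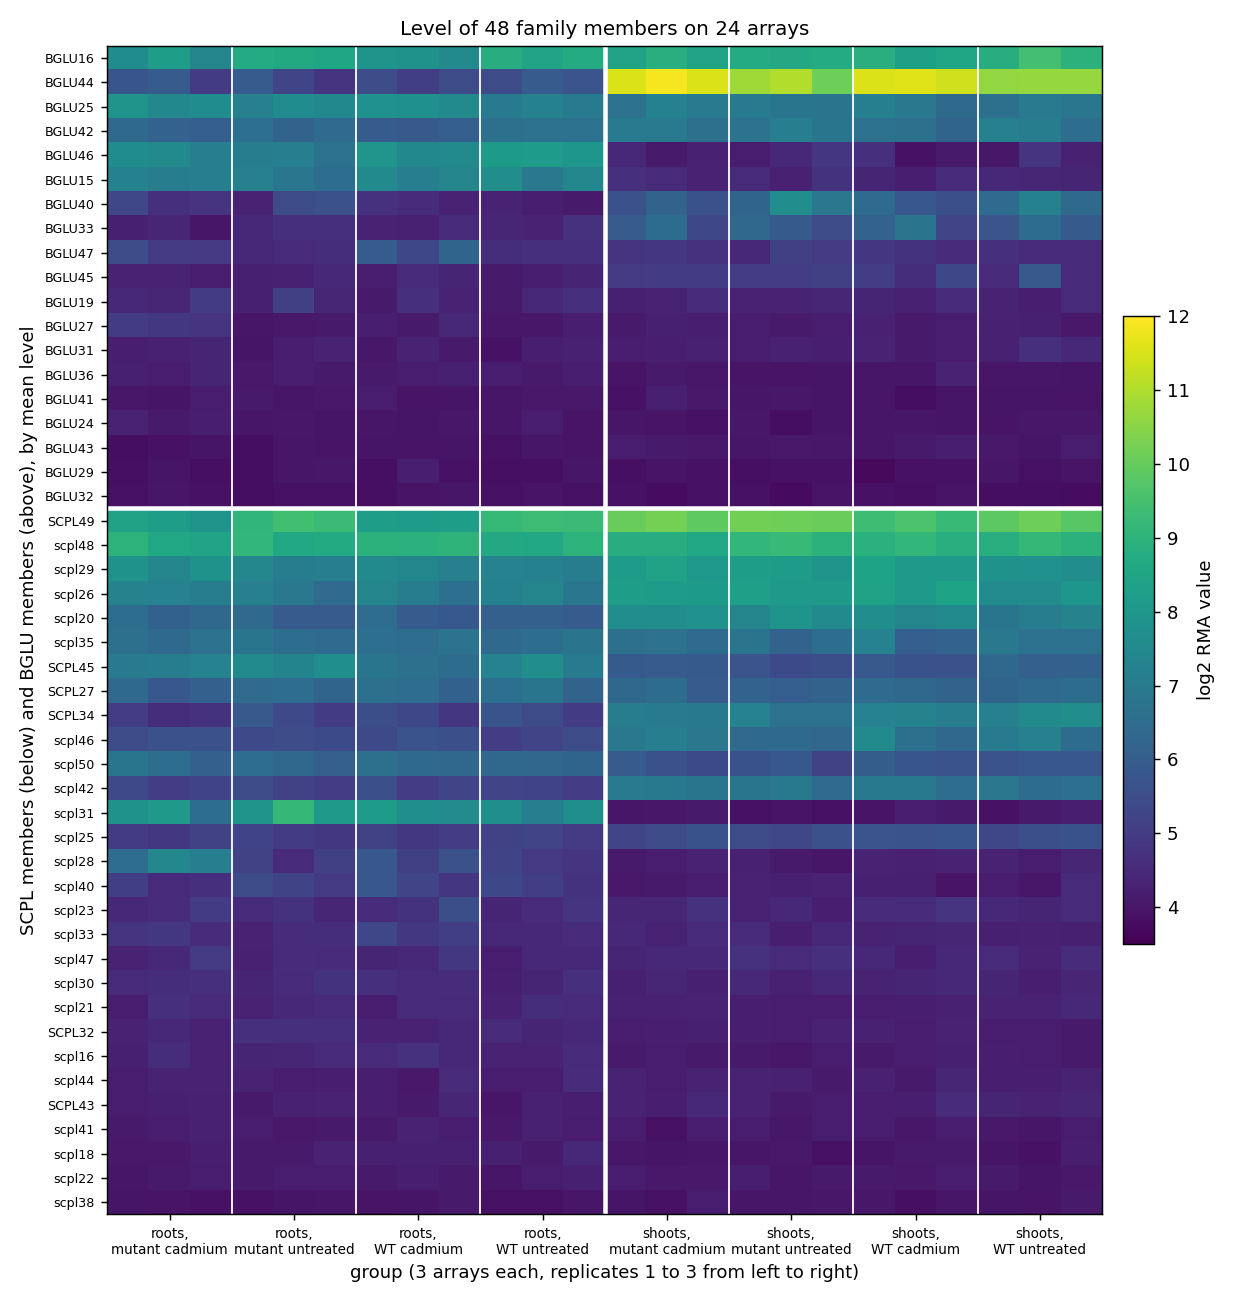
Level of each of the 48 members (rows, BGLU above and SCPL below, each ordered by mean level) on each of the 24 arrays (columns, 3 per group), with colour giving the log2 RMA value. BGLU44 reaches 11.88 on a shoot array and stays below 6 on root arrays, scpl31 and BGLU46 show the opposite pattern, and the lower rows of both families stay dark on all arrays.

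Over the 8 groups, 27 members were called for any difference (limma moderated F test), 11 of 19 BGLU and 16 of 29 SCPL, and 57.7% of all probe sets were called by the same test. The range between a member's highest and lowest group mean had a median of 0.82 log2 units in BGLU and 0.62 in SCPL, beside 0.68 over all probe sets. By these measures, which mix organ, genotype and cadmium, both families are thus close to the background of the array. Counts within an organ are given below. Ranges of single members differed far more than the medians of the families. BGLU44 had the widest among BGLU at 6.30, followed by BGLU46 (3.87), BGLU15 (2.97), BGLU40 (2.72) and BGLU33 (1.85). Among SCPL, scpl31 had the widest at 4.48, followed by scpl28 (2.91), SCPL34 (2.68), SCPL45 (1.98) and SCPL49 (1.95). Of the 48 members, 26 had their highest group mean in a root group (10 BGLU and 16 SCPL) and 22 in a shoot group (9 BGLU and 13 SCPL).

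At the other end, 20 members had group means within 1 log2 unit of each other and passed in no pairwise comparison. These were BGLU19, BGLU24, BGLU29, BGLU32, BGLU36, BGLU41 and BGLU43, and scpl18, scpl21, scpl22, scpl23, SCPL27, scpl30, scpl35, scpl38, scpl41, SCPL43, scpl44, scpl47 and scpl48. Most of them sat at the low end of the scale. Exceptions were scpl48, which read 8.48 to 9.22 over all 24 arrays, scpl35 at 6.05 to 7.27 and SCPL27 at 5.80 to 6.80. The narrowest range of group means was that of scpl44, 0.07.

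Organ was the comparison with the largest differences in both families. Untreated roots were set against untreated shoots, so that hours of cadmium play no part. In the mutant 23 members were called (8 BGLU and 15 SCPL, 10 higher in roots and 13 lower), beside 45.2% of all probe sets. In WT 21 were called (7 BGLU and 14 SCPL, 8 higher and 13 lower), beside 44.2%. Arrays of the organs did not overlap in 27 members in the mutant (54.7% of all probe sets) and in 28 in WT (51.6%). By direction the background was 24.1% higher and 21.2% lower in the mutant, and 23.1% higher and 21.2% lower in WT, so each count is near its background. The calls of 20 members were shared, 87.0% of those in the mutant and 95.2% of those in WT, with the same direction in 20 of 20, and 36.5% of all probe sets were called alike in both genotypes. Calls in the mutant alone were those of BGLU25, BGLU42 and scpl16, and the call in WT alone was that of BGLU31. Whether those differences differ between genotypes was not tested.

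Among beta-glucosidases the shoot pattern was widest in BGLU44, an enzyme with beta-mannosidase activity in vitro. It read 5.99, 5.29 and 4.81 in untreated mutant roots, against 10.78, 11.03 and 10.13 in untreated mutant shoots. In WT it read 5.47, 5.96 and 5.74 in untreated roots, against 10.61, 10.64 and 10.65 in untreated shoots. All root arrays lay far below all shoot arrays. The difference was -5.28 ± 0.27 (SE) in the mutant (adjusted p = 7.9e-13, limma) and -4.91 ± 0.27 in WT (adjusted p = 2.82e-12). Some root readings of BGLU44 lay low on the scale, where some members called in no pairwise comparison also read, so no fold is given. BGLU40 and BGLU33 were also lower in roots, by -1.78 and -1.32 in the mutant and by -2.50 and -1.55 in WT.

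The root pattern among beta-glucosidases was that of BGLU46 and BGLU15. BGLU46 hydrolyses glucosides of monolignols, the building units of lignin, and BGLU15 hydrolyses flavonol glycosides. BGLU46 read 7.11, 7.12 and 6.68 in untreated mutant roots, against 4.16, 4.48 and 4.86 in untreated mutant shoots. In WT it read 8.12, 8.20 and 7.95 in untreated roots, against 4.04, 4.81 and 4.27 in untreated shoots. No root array overlapped a shoot array, and the difference was 2.47 ± 0.22 in the mutant (adjusted p = 6.58e-09) and 3.72 ± 0.22 in WT. BGLU15 was higher in roots by 2.36 ± 0.18 in the mutant and by 2.93 ± 0.18 in WT. Its shoot readings lay at the low end of the scale, where some members called in no pairwise comparison also read, so no fold is given.

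Among the SCPL members scpl31 was the one most strongly tied to roots. It read 7.91, 9.17 and 8.07 in untreated mutant roots, against 3.88, 3.94 and 3.88 in untreated mutant shoots. In WT it read 7.72, 7.12 and 7.73 in untreated roots, against 3.93, 4.11 and 4.21 in untreated shoots. The difference was 4.48 ± 0.31 in the mutant (adjusted p = 1.22e-10) and 3.44 ± 0.31 in WT, with no overlap between organs. Its shoot readings lay at the low end of the scale, where some members called in no pairwise comparison also read. For that reason no fold is given and the difference is a least size on this scale. SCPL45 followed at 1.98 ± 0.15 in the mutant and 1.11 ± 0.15 in WT. Several other SCPL members ran the other way. In the mutant scpl42 was lower in roots by -1.52, scpl20 by -1.51, SCPL34 by -1.45 and scpl26 by -1.27. In WT SCPL34 was lower in roots by -2.10, scpl46 by -1.62, scpl42 by -1.47 and scpl20 by -1.01. SCPL49 was lower in roots by -0.84 in the mutant and -0.65 in WT.

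The smaller organ differences were mostly those of SCPL members. In both genotypes scpl40, scpl28, scpl50 and SCPL32 were higher in roots, by 0.92, 0.80, 0.76 and 0.42 in the mutant and by 0.83, 0.68, 0.53 and 0.33 in WT. Lower in roots of both were scpl29 (-0.88 in the mutant and -0.59 in WT) and scpl25 (-0.43 in the mutant and -0.37 in WT). In the mutant alone BGLU25 differed by 0.59, BGLU42 by -0.47 and scpl16, of the acyltransferase branch, by 0.32, and in WT alone BGLU31 differed by -0.32. These small differences hung most on single arrays. In the mutant the call of BGLU42 ended without root or shoot replicate 2 (adjusted p 0.128 and 0.131), and that of scpl25 without root or shoot replicate 3 (adjusted p 0.0544 and 0.056). In WT BGLU31 lost its call without root replicate 1 or shoot replicate 2 or 3 (adjusted p 0.053 to 0.166), scpl50 without root replicate 1 or 2 or shoot replicate 1 (adjusted p 0.0535 to 0.0724) and scpl28 without root replicate 1 (adjusted p = 0.0542). Also in WT scpl25 lost it without root replicate 3 or shoot replicate 2 or 3 (adjusted p 0.0785 to 0.121), and scpl26, at -0.58, without root or shoot replicate 3 (adjusted p 0.103 and 0.0886).

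The 25S level touched the small WT differences too. On arrays with a high level, which leave 1 array of untreated WT shoots, the WT calls ended for scpl29 (adjusted p = 0.0578), SCPL32 (0.0646), scpl40 (0.0885), scpl28 (0.111), scpl50 (0.145), BGLU31 (0.167) and BGLU45 (0.359). With the level as a covariate that of scpl26 ended (adjusted p = 0.0535). In a model of the 6 compared arrays those of scpl25 (adjusted p = 0.0648), BGLU31 (0.111) and BGLU45 (0.136) ended, and that of BGLU31 also after centring each array (0.0886).

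**Figure D2:**
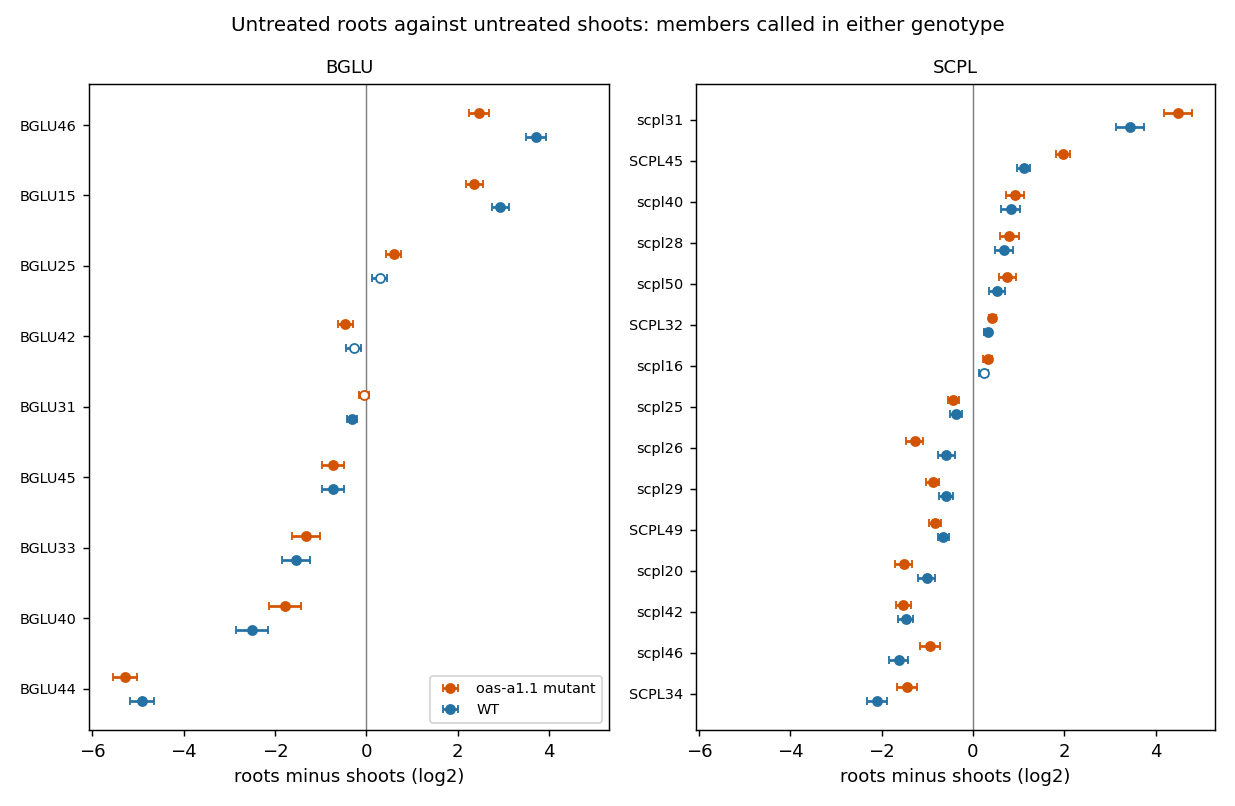
Difference between untreated roots and untreated shoots (horizontal axis, roots minus shoots on the log2 scale) for the members called in either genotype, with BGLU on the left and SCPL on the right. Points are limma estimates and bars are 1 SE, orange for the oas-a1.1 mutant and blue for WT, and open points did not pass; BGLU44 lies at -5.28 in the mutant and -4.91 in WT, and scpl31 at 4.48 in the mutant and 3.44 in WT.

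Within an organ 12 members were called in at least 1 comparison of genotype or cadmium, 7 BGLU and 5 SCPL, beside 13.2% of all probe sets. The members are taken here by comparison, and the plot of these 12 members by array shows all their values.

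In untreated roots the mutant was compared with WT to see what loss of OASA1 changes without cadmium. BGLU46 fell. It read 7.11, 7.12 and 6.68 in mutant roots, against 8.12, 8.20 and 7.95 in WT roots, so every mutant array lay below every WT array. The difference was -1.12 ± 0.18 (SE, n = 3 arrays a group, adjusted p = 0.0251, limma), 2.17-fold lower. It was the only member called, 1 of 48 beside 0.356% of all probe sets, and arrays did not overlap in 5 members, beside 9.69%. The call ended without mutant replicate 2 or 3, or without WT replicate 1 or 2 (adjusted p 0.0685 to 0.138). Among SCPL members the smallest p belonged to SCPL32, at 4.67 in mutant roots and 4.47 in WT roots (difference 0.20, adjusted p = 0.772). BGLU40 and scpl31 had larger differences, 0.93 and 0.86, that did not pass (adjusted p = 0.355 and 0.779). Mutant replicate 1, the lowest mutant array of BGLU40, was also the only array of the compared groups with a low 25S level. Leaving it out and keeping only arrays with a high level thus drop the same array from this contrast. Both gave BGLU40 a difference of 1.34 (adjusted p = 0.0161 and 0.0115, limma).

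Under cadmium 2 members differed between mutant and WT roots, beside 1.74% of all probe sets. Both were higher in the mutant, beside 1.22% in that direction, and arrays did not overlap in 5 members, beside 12.3%. The SCPL member scpl28, whose substrate is not known here, read 6.55, 7.43 and 7.14 in cadmium-treated mutant roots, against 5.81, 5.12 and 5.60 in cadmium-treated WT roots. Its difference was 1.53 ± 0.26 (adjusted p = 0.0162, limma). BGLU27 read 5.0, 4.87 and 4.79 in the mutant, against 4.20, 4.1 and 4.47 in WT, a difference of 0.63 ± 0.11 (adjusted p = 0.0225). Neither overlapped between genotypes, but both of BGLU27's groups read near the low end of the scale. The scpl28 call ended without mutant replicate 2 or 3 or without WT replicate 2 (adjusted p 0.0544 to 0.0691). That of BGLU27 ended when replicate 1 or 2 of either genotype was left out (adjusted p 0.071 to 0.086), and its adjusted p was 0.178 on arrays with a high 25S level. No label pairs the arrays. Deviations from the group means of arrays with equal replicate numbers correlated at 0.639, 0.111 and 0.218 in this comparison. The highest was that of replicate 1, the only array of either group with a low 25S level. With the replicate number as a block 3 members passed: scpl28, BGLU27 and scpl40, which was lower in the mutant (-0.56, adjusted p = 0.0497, limma, against 0.436 without the block). BGLU47 passed in a model of all 24 arrays (-0.75, adjusted p = 0.0338, against 0.134), and without WT replicate 2 (adjusted p = 0.0351).

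The genotype difference of BGLU46 did not pass under cadmium ( -0.19 ± 0.18, adjusted p = 0.883). It read 7.65, 7.54 and 7.15 in cadmium-treated mutant roots and 7.92, 7.46 and 7.53 in cadmium-treated WT roots. In the mutant these cadmium values lay above all untreated values, and in WT they lay below all untreated values. The nearest arrays were close, at 7.15 and 7.12 in the mutant and 7.92 and 7.95 in WT. Neither change with cadmium passed: 0.48 in the mutant (adjusted p = 0.213, limma) and -0.45 in WT (adjusted p = 0.239). That in the mutant passed after quantile normalization (0.49, adjusted p = 0.0361) and with the replicate number as a block (adjusted p = 0.0466). The difference between the mutant and WT responses was 0.93 ± 0.25 and did not pass (adjusted p = 0.145). It passed after quantile normalization (0.84, adjusted p = 0.0423) and with the replicate number as a block (adjusted p = 0.0324). No label pairs these arrays, and their deviations did not correlate throughout.

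In mutant roots cadmium changed 4 members, beside 4.26% of all probe sets. Of these 2 rose (background 2.46%) and 2 fell (1.81%), and arrays did not overlap in 10 members (16.5%). The largest was the rise of scpl28, which read 6.55, 7.43 and 7.14 with cadmium, against 5.14, 4.54 and 5.12 without it. Treated arrays lay well above untreated ones, and the difference was 2.11 ± 0.26 (adjusted p = 0.000902, limma). Its untreated readings lay at the low end of the scale, where some members called in no pairwise comparison also read, so no fold is given. BGLU27 rose by 0.81 ± 0.11 (adjusted p = 0.00244), to 5.0, 4.87 and 4.79 with cadmium, against 4.02, 4.08 and 4.13 without it. The same cadmium-treated mutant arrays enter the calls of scpl28 and BGLU27 against WT, so these calls are not separate results.

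The 2 falls in mutant roots were those of SCPL49 and BGLU16. SCPL49 read 8.39, 8.23 and 7.91 with cadmium, against 9.11, 9.44 and 9.31 without it, a difference of -1.11 ± 0.13 (adjusted p = 0.000739), 2.16-fold lower. BGLU16 read 7.64, 8.25 and 7.37 with cadmium, against 8.72, 8.66 and 8.50 without it, a difference of -0.87 ± 0.20 (adjusted p = 0.0313). Treated and untreated arrays did not overlap in either. The calls of scpl28, BGLU27 and SCPL49 were kept without any single array of the 2 groups. That of BGLU16 ended without any of the untreated replicates or without treated replicate 1 or 3 (adjusted p 0.0643 to 0.103), and on arrays with a high 25S level (adjusted p = 0.231).

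In WT roots cadmium changed 6 members, beside 3.91% of all probe sets. Of these 3 rose (background 1.64%) and 3 fell (2.27%), and arrays did not overlap in 9 members (16%). BGLU47, which is grouped by sequence with the monolignol glucosidases BGLU45 and BGLU46, rose. It read 5.99, 5.34 and 6.25 with cadmium, against 4.61, 4.69 and 4.67 without it, a difference of 1.20 ± 0.21 (adjusted p = 0.00978, limma). Its untreated readings lay at the low end of the scale, where some members called in no pairwise comparison also read, so no fold is given. Its untreated arrays were close together and its treated arrays spread over almost 1 log2 unit, all above the untreated ones. BGLU25 rose by 0.61 ± 0.14 (adjusted p = 0.0411), to 7.80, 7.76 and 7.58 with cadmium, against 7.04, 7.24 and 7.04 without it. The SCPL member scpl33 rose by 0.58 ± 0.13 (adjusted p = 0.0339), to 5.3, 4.87 and 5.08 with cadmium, against 4.49, 4.49 and 4.53 without it.

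SCPL49 fell in WT roots too, with 8.25, 8.20 and 8.27 with cadmium, against 9.21, 9.34 and 9.30 without it. The difference was -1.04 ± 0.13 (adjusted p = 0.00123), 2.06-fold lower, and the treated arrays lay close together. BGLU16 fell by -0.90 ± 0.20 (adjusted p = 0.0287), to 7.90, 7.82 and 7.56 with cadmium, against 8.79, 8.45 and 8.74 without it. BGLU42, which helps to release iron-binding coumarins from roots and takes part in resistance induced by root bacteria, fell by -0.70 ± 0.13 (adjusted p = 0.0117). It read 5.99, 5.89 and 6.05 with cadmium, against 6.65, 6.71 and 6.68 without it. SCPL45 read 6.79, 6.63 and 6.49 with cadmium, against 7.26, 7.69 and 7.02 without it, and did not pass (adjusted p = 0.0524, limma). Its difference of -0.69 passed in a model of all 24 arrays (adjusted p = 0.00593) and among the upper 60% of probe sets by level (adjusted p = 0.042). Without untreated replicate 3 it was -0.84 (adjusted p = 0.026).

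Of these WT calls, those of SCPL49 and BGLU47 were kept without any single array. The call of BGLU42 ended without treated or untreated replicate 2 (adjusted p 0.051 and 0.0532), and that of BGLU25 without any 1 of the 6 arrays (adjusted p 0.07 to 0.146). The call of BGLU16 ended without any untreated replicate or without treated replicate 2 or 3 (adjusted p 0.055 to 0.123), and that of scpl33 without any untreated replicate or without treated replicate 1 or 3 (adjusted p 0.0667 to 0.117). On arrays with a high 25S level the adjusted p was 0.0606 for BGLU16 and 0.0717 for scpl33. Over all 13 root calls, 9 were kept on those arrays, and 13 when the 25S level was added as a covariate.

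The calls of BGLU16 and SCPL49 were shared by both genotypes, 2 of the 4 in mutant roots (50.0%) and 2 of the 6 in WT roots (33.3%), and 1.29% of all probe sets were called alike in both. The comparisons use separate arrays. Members called in 1 genotype had a difference of the same sign in the other that did not pass. In WT roots scpl28 differed by 0.53 (adjusted p = 0.388) and BGLU27 by 0.15 (adjusted p = 0.666). In mutant roots BGLU47 differed by 0.59 (adjusted p = 0.195), BGLU42 by -0.20 (adjusted p = 0.644), BGLU25 by 0.24 (adjusted p = 0.58) and scpl33 by 0.26 (adjusted p = 0.439).

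The test of whether the cadmium response differed between genotypes called 0 members in roots with limma, beside 0.747% of all probe sets. An unadjusted p under 0.05 was found for 4 members, and the share of all probe sets at that level was not counted. The smallest p was that of scpl28, whose response was 2.11 in the mutant and 0.53 in WT, a difference of 1.58 ± 0.36 (adjusted p = 0.0809). BGLU27 responded by 0.81 in the mutant and by 0.15 in WT, a difference of 0.66 ± 0.16 (adjusted p = 0.112). The difference for BGLU47 was -0.61 ± 0.30 (adjusted p = 0.621). These results depend on the model. A difference of response was called for scpl28 in a model of all 24 arrays (adjusted p = 0.00477), among the upper 60% of probe sets by level (adjusted p = 0.0418) and without cadmium-treated mutant replicate 1 (1.82, adjusted p = 0.0441), and for BGLU27 in the model of all 24 arrays (adjusted p = 0.0133).

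Of the 3 root markers 1 was called with cadmium in both genotypes, beside 1.29% of all probe sets called alike in both. PYK10, a beta-glucosidase of endoplasmic reticulum bodies that belongs to the same family under another symbol, rose by 0.57 in mutant roots (adjusted p = 0.0196) and by 0.71 in WT roots (adjusted p = 0.00694). EXPA7 differed by 0.08 in mutant roots and 0.09 in WT roots (adjusted p = 0.996 and 0.927), and EXPA18 by 0.35 and 0.52 (adjusted p = 0.505 and 0.206). The mean over the 3 root markers was 8.51 to 8.92 on cadmium-treated mutant arrays and 8.17 to 8.47 on untreated mutant arrays. It was 8.73 to 9.18 on cadmium-treated WT arrays and 8.43 to 8.61 on untreated WT arrays. The part of these markers in the cadmium results of roots was not tested.

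**Figure D3:**
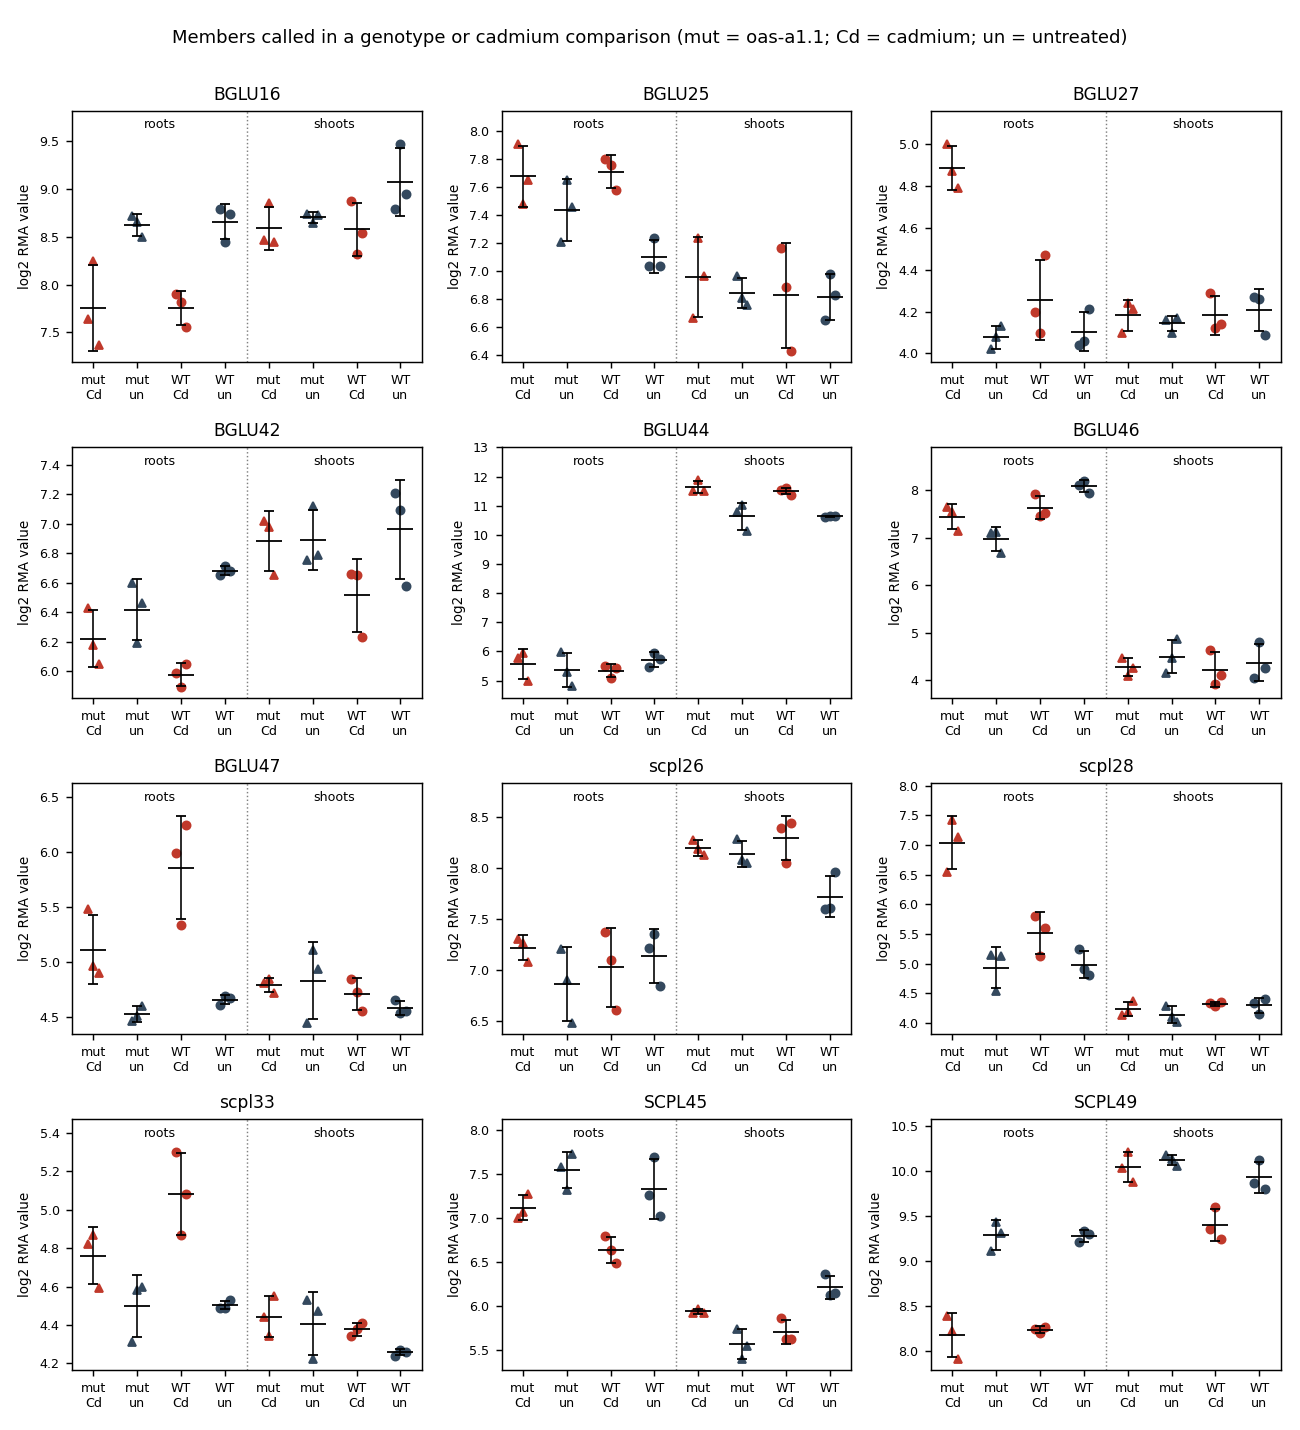
Log2 RMA value (vertical axis, a scale of its own in each panel) of the 12 members called in a genotype or cadmium comparison, by group (horizontal axis, roots left of the dotted line and shoots right of it). Points are arrays (triangles mutant, circles WT, red with cadmium, dark blue untreated), the line is the mean of 3 arrays and the bars are 1 SD; scpl28 stands at 6.55 to 7.43 in cadmium-treated mutant roots and SCPL49 lies lower in both cadmium-treated root groups.

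In shoots 4 members were called within the organ, SCPL45, SCPL49, scpl26 and BGLU44. Between untreated mutant and WT shoots 1 member was called, beside 1.46% of all probe sets, and arrays did not overlap in 11 members, beside 17.2%. SCPL45 read 5.74, 5.40 and 5.55 in mutant shoots, against 6.36, 6.12 and 6.15 in WT shoots, and every mutant array lay below every WT array. It fell by 0.65 ± 0.11 log2 units (adjusted p = 0.0177, limma), 1.57-fold. The call ended without mutant replicate 2 or 3 or without WT replicate 1 or 2 (adjusted p 0.0605 to 0.0837). The BGLU member with the smallest p was BGLU31, at 4.21 in mutant shoots and 4.45 in WT shoots (difference -0.24, adjusted p = 0.276).

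Between cadmium-treated mutant and WT shoots limma called 0 members, beside 0.154% of all probe sets. The share of all probe sets with an unadjusted p under 0.05 was not counted, and 1 member was under that level. That member was SCPL49, which read 10.04, 10.21 and 9.88 in mutant shoots, against 9.36, 9.60 and 9.25 in WT shoots. The groups did not overlap, which held for 5 members beside 13.1% of all probe sets, and the difference was 0.64 ± 0.12 (adjusted p = 0.0938). It passed in a model of all 24 arrays (adjusted p = 0.0299) and after centring each array (adjusted p = 0.0457). The BGLU member with the smallest p was BGLU42, at 6.88 in mutant shoots and 6.51 in WT shoots (difference 0.37, adjusted p = 0.61).

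BGLU44 rose with cadmium in the shoots of both genotypes. In mutant shoots it was the only member called, beside 2.18% of all probe sets, and arrays did not overlap in 11 members, beside 17.1%. It read 11.52, 11.88 and 11.51 with cadmium, against 10.78, 11.03 and 10.13 without it, a difference of 0.99 ± 0.19 (adjusted p = 0.0246, limma), 1.99-fold. In WT shoots it read 11.55, 11.60 and 11.38 with cadmium, against 10.61, 10.64 and 10.65 without it, a difference of 0.88 ± 0.19 (adjusted p = 0.0231), 1.84-fold. Treated arrays lay above untreated ones in both genotypes, and the responses differed by 0.11 ± 0.27 (adjusted p = 0.939). The call ended in the mutant without treated replicate 1 or 2 (adjusted p 0.0657 to 0.0981) and in WT without treated or untreated replicate 1 or 2 (adjusted p 0.0622 to 0.0906). In a model of all 24 arrays the adjusted p was 0.0524 in the mutant and 0.0597 in WT, and adding the 25S level as a covariate gave 0.0808 in the mutant.

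In WT shoots cadmium changed 3 further members, 4 in all, beside 5.58% of all probe sets. Of the 4, 2 rose (background 2.95%) and 2 fell (2.64%), and arrays did not overlap in 12 members (19.5%). The SCPL member scpl26 rose by 0.57 ± 0.13 (adjusted p = 0.0278, limma), to 8.40, 8.05 and 8.44 with cadmium, against 7.60, 7.61 and 7.96 without it. SCPL45 fell to 5.86, 5.63 and 5.62 with cadmium, against 6.36, 6.12 and 6.15 without it, a difference of -0.51 ± 0.11 (adjusted p = 0.02). SCPL49 fell to 9.36, 9.60 and 9.25 with cadmium, against 9.87, 10.12 and 9.80 without it, a difference of -0.53 ± 0.12 (adjusted p = 0.029). None of these 3 overlapped between treated and untreated arrays. Each call ended without some single arrays: scpl26 without treated replicate 1 or 3 or untreated replicate 1 or 2 (adjusted p 0.084 to 0.116), SCPL45 without treated replicate 2 or 3 or untreated replicate 1 (adjusted p 0.0704 to 0.0903), and SCPL49 without treated replicate 1 or 3 or untreated replicate 1 or 2 (adjusted p 0.0741 to 0.119). In a model of all 24 arrays the adjusted p of scpl26 was 0.0903.

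In mutant shoots the same 3 members did not pass: scpl26 differed by 0.06 (adjusted p = 0.925), SCPL49 by -0.08 (adjusted p = 0.875) and SCPL45 by 0.37 (adjusted p = 0.118). BGLU40 had the largest difference that did not pass, -1.13 ± 0.36 in mutant shoots (adjusted p = 0.155), with 5.60, 6.19 and 5.60 with cadmium, against 6.24, 7.66 and 6.87 without it.

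The test of a different cadmium response in the 2 genotypes called 1 member in shoots, SCPL45, beside 0.444% of all probe sets. SCPL45 responded by 0.37 in the mutant and by -0.51 in WT, and the difference was 0.88 ± 0.15 (adjusted p = 0.0345, limma). The same untreated WT shoot arrays enter the other shoot calls of SCPL45, so these calls are not separate results for SCPL45. Its treated arrays lay at 5.92, 5.97 and 5.92 in mutant shoots and at 5.86, 5.63 and 5.62 in WT shoots, whereas its untreated arrays did not overlap between genotypes. The call ended in 9 of 12 settings that left out 1 array (adjusted p 0.0616 to 0.1), which covered every treated mutant replicate, untreated mutant replicate 2 or 3, treated WT replicate 2 or 3 and untreated WT replicate 1 or 2. It also ended when the 25S level was a covariate (adjusted p = 0.0671). The BGLU member with the smallest p was BGLU31, whose response differed by 0.24 (adjusted p = 0.558). On arrays with a high 25S level 0 of the 7 shoot calls were kept. That setting leaves 1 array in cadmium-treated mutant shoots and 1 in untreated WT shoots, so it says little about these calls.

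**Figure D4:**
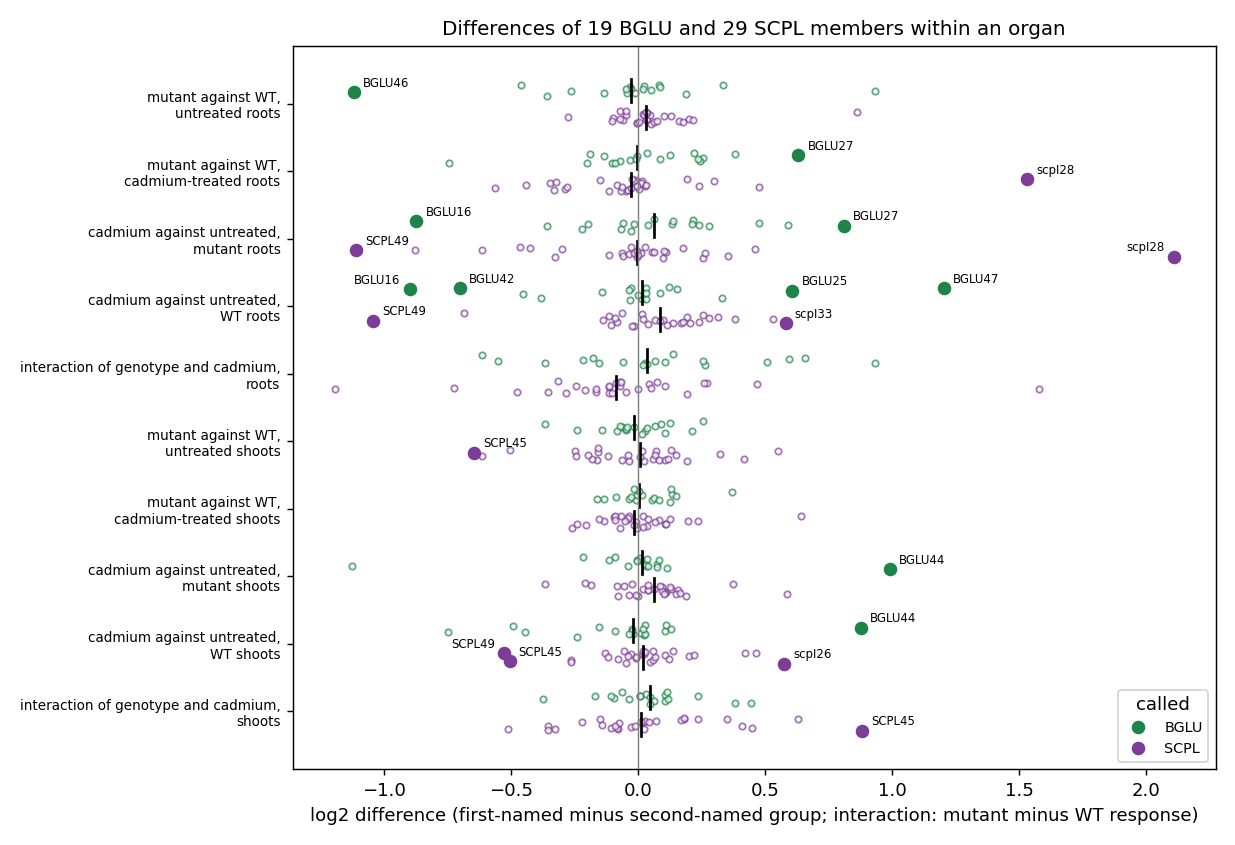
Log2 difference (horizontal axis) of every member in the 10 comparisons within an organ (rows), green for BGLU and purple for SCPL, with filled named points for called members, open points for the others and a short vertical line at the median of each family. The medians lie between -0.09 and 0.09 in every row, and the named points lie between BGLU46 at -1.12 in untreated roots and scpl28 at 2.11 in mutant roots.

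The families were set side by side by counts, with no test between them. In the 4 cadmium comparisons the number called was 2 of 19 BGLU (10.5%) and 2 of 29 SCPL (6.9%) in mutant roots, beside 4.26% of all probe sets. In WT roots it was 4 BGLU (21.1%) and 2 SCPL (6.9%), beside 3.91%. In mutant shoots it was 1 BGLU (5.26%) and 0 SCPL, beside 2.18%. There 3 SCPL had an unadjusted p under 0.05, a level whose share of all probe sets was not counted. In WT shoots it was 1 BGLU (5.26%) and 3 SCPL (10.3%), beside 5.58%. Medians of the difference were close to 0 throughout. In mutant roots under cadmium the median was 0.06 over BGLU, 0.00 over SCPL and -0.01 over all probe sets. In WT roots it was 0.01 over BGLU, 0.09 over SCPL and 0.02 over all probe sets. In all 4 cadmium comparisons most members of both families did not pass.

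Several members lie side by side on the chromosome in the reference table, with at most 1 protein-coding gene between them. The pairs are BGLU15 and BGLU29, BGLU16 and BGLU27, BGLU31 and BGLU32, BGLU43 and BGLU44, BGLU45 and BGLU46, scpl22 and scpl23, and scpl26 and scpl28. The pairs described here were picked out after their values were seen. BGLU15 was higher in roots, while the group means of its neighbour BGLU29 spanned 0.14. BGLU45 was lower in roots (difference -0.74 in the mutant and -0.73 in WT), where its neighbour BGLU46 was higher. In WT that of BGLU45 rested on shoot replicate 2, which read 5.88 beside 4.5 and 4.55, and without it the difference was -0.28 (adjusted p = 0.162). Its call also ended in WT without root replicate 1 (adjusted p = 0.0591) and in the mutant without root replicate 1 (adjusted p = 0.0507). BGLU43 read 3.80 to 4.20 on all 24 arrays, while the group means of its neighbour BGLU44 spanned 6.30. In mutant roots under cadmium BGLU27 rose where BGLU16 fell. In mutant roots scpl28 was called with cadmium and its neighbour scpl26 was not. In WT shoots scpl26 was called with cadmium and scpl28 was not. Organ and hours cannot be told apart, so these results are not set against each other. Whether neighbours differ in their response was not tested.

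Genes that work with these families were measured only in part. Of 9 genes listed for the glucosylation of monolignols and the synthesis of coumarins, 6 were measured. With cadmium 3 rose in WT roots, beside 1.64% of all probe sets. They were UGT72E1, UGT72E2 and UGT72E3, which attach glucose to monolignols or related phenolics. They rose by 1.35 (adjusted p = 0.0249, limma), 1.12 (adjusted p = 0.0471) and 0.77 (adjusted p = 0.0389). UGT72E2 read 9.01 in cadmium-treated mutant roots and 9.79 in untreated mutant roots, and 9.56 in cadmium-treated WT roots and 8.44 in untreated WT roots. In mutant roots none of the 3 passed, and UGT72E1 differed by 1.09 (adjusted p = 0.063). None of the 3 passed the test of a different response between genotypes (adjusted p = 0.953, 0.0566 and 0.206). The median difference of the 6 with cadmium was -0.03 in mutant roots and 0.53 in WT roots, beside -0.01 and 0.02 over all probe sets. UGT72E1 also rose in shoots, by 1.26 in the mutant (adjusted p = 0.0272) and by 1.19 in WT (adjusted p = 0.019). UGT72B1, which glucosylates phenolics and foreign compounds, fell with cadmium by 0.91 in mutant roots (adjusted p = 0.017), by 0.91 in mutant shoots (adjusted p = 0.0101) and by 0.63 in WT shoots (adjusted p = 0.0328). It was higher in untreated mutant shoots than in untreated WT shoots by 0.77 (adjusted p = 0.0322).

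Of 21 genes listed as partners of beta-glucosidases in endoplasmic reticulum bodies and in myrosinase complexes, 7 were measured. With cadmium 2 rose in mutant roots, beside 2.46% of all probe sets: PYK10 and the jacalin lectin gene JAL33 (1.15, adjusted p = 0.0182, limma). In WT roots 1 rose, PYK10, beside 1.64%. The median of the 7 was 0.17 in mutant roots and 0.21 in WT roots. Without cadmium 6 of the 7 were higher in roots than in shoots in both genotypes. The background in that direction was 24.1% in the mutant and 23.1% in WT. PYK10 differed by 7.59 in the mutant and 7.65 in WT. A probe set that reads BGLU21 and BGLU22 together, and so is no member, had group means of 10.66 to 11.10 in roots and 3.74 to 3.87 in shoots.

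The remaining lists gave few calls. Of 9 genes listed for the conjugation and release of abscisic acid 4 were measured, and UGT71C5, which makes the glucose ester of abscisic acid, fell by 0.84 (adjusted p = 0.0265) in untreated mutant shoots relative to untreated WT shoots. None of the 3 measured genes of sinapate ester synthesis, of 15 listed, passed within an organ. Of 9 genes listed as raised by sulfur limitation 2 were measured. SDI2 rose with cadmium in WT roots by 1.77 (adjusted p = 0.0143), and BGLU28, which is left out of the members, had group means of 3.98 to 4.29 throughout. Of 15 family members listed under other symbols 2 were measured, PYK10 and ATA27, and ATA27 passed in no comparison.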

How the data were processed

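Gene expression was measured on Affymetrix ATH1 arrays. The values the authors deposited are on a log2 scale and came from RMA in the affy package, per the submitters' processing notes. The version of affy is not given in the sources used here, nor is it said if the 24 arrays were normalized in 1 run. RMA equalises the distribution of values between arrays, so a shift shared by most genes would be removed, and it narrows differences of dim probe sets. Values were used as deposited, and 0 columns lacked a sample.

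The 64 control probe sets were left out, and 22746 were tested with no filter on level. Of these 13513 had a single gene, 503 several and 8730 none. The reference gene table (TAIR10.1) matched 13436 of the 13513 and not the other 77. Each organ's 12 arrays were fitted with limma 3.58.1 in R 4.3.3, with a mean per group and empirical Bayes moderation. Roots against shoots and the F test used all 24 arrays. Tests were two-sided, with p adjusted by Benjamini and Hochberg over all probe sets of a comparison, 13 comparisons in all. The scripts were tested on simulated data.

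Every member that passed is named, with the member of smallest p where a family had none, the 5 highest in each organ, the 5 widest ranges, the flat members, and listed genes that passed. The members and lists were chosen with earlier results of these data known. Alternatives were a filter, centring, quantile normalization, other models, a replicate block, a 25S covariate and single arrays left out; the restriction to arrays with a high 25S level was added after the data were seen. To see whether equal replicate numbers pair arrays, their deviations from the group means were correlated. All 3 pairs passed 0.1 only for cadmium-treated roots of mutant and WT (0.639, 0.111 and 0.218).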

Additional observations from a re-analysis of the deposited data

Results flagged for a closer look

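The cadmium response of SCPL45 in shoots differed between genotypes. It was 0.37 in the mutant and -0.51 in WT, a difference of 0.88 by the interaction term of the limma model (adjusted p = 0.0345). The call was lost in 9 of 12 settings that left out 1 array, and with quantile normalization, a trended prior, the 25S covariate and the arrays with a high 25S level.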

How the results depend on the processing

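Leaving out 1 array at a time moved the number of members called to 0 to 2 for mutant against WT in untreated roots and in cadmium-treated roots, 3 to 5 for cadmium in mutant roots, 2 to 4 for cadmium in WT roots, 0 to 1 for the interaction in roots, 0 to 2 for mutant against WT in untreated shoots, 0 to 0 in cadmium-treated shoots, 0 to 1 for cadmium in mutant shoots, 0 to 5 for cadmium in WT shoots, 0 to 1 for the interaction in shoots, 22 to 24 and 18 to 21 for roots against shoots in the mutant and WT, and 27 to 28 for any difference. Restriction to the upper 60% of probe sets by level gave 1 in cadmium-treated mutant against WT roots and 1 for the interaction in roots. Centring each array gave 1 in cadmium-treated mutant against WT shoots. Quantile normalization gave 1 for the interaction in roots and 0 for that in shoots, and a trended and robust prior gave 0 for the interaction in shoots. A model of all 24 arrays gave 2 for the interaction in roots, 1 in cadmium-treated mutant against WT shoots, 0 for cadmium in mutant shoots and 2 in WT shoots. The replicate number as a block gave 3 against 2 in cadmium-treated mutant against WT roots. There all 3 correlations of deviations passed 0.1, but no label pairs those arrays. The block gave 1 for the interaction in roots, 1 in cadmium-treated mutant against WT shoots and 3 for cadmium in mutant shoots. In those comparisons the arrays share only a number. It changed no other count by over 1.5 times. The 25S level as a covariate gave 0 for cadmium in mutant shoots and 0 for the interaction in shoots. Arrays with a high 25S level alone gave 2 in untreated and 1 in cadmium-treated mutant against WT roots, and 0 in untreated mutant against WT shoots, for cadmium in mutant and in WT shoots and for the interaction in shoots, with fewer arrays fitted. For the other changes the cause was not tested. Of 499 values of called members under the settings other than leaving out 1 array, 468 kept the call, 31 lost it and 0 changed direction. This total pools the calls of roots against shoots, 23 in the mutant and 21 in WT, with 13 root and 7 shoot calls within an organ. It therefore does not give the stability of the calls within an organ. Members named flat that passed in some comparison under another setting were scpl18, scpl21, SCPL27, scpl35, SCPL43, scpl48 and BGLU43. A second probe set per gene was not run as an alternative, since 0 members had more than 1. Precision is limited by 3 arrays a group, and signal over background was not given.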
